A study of Mus musculus with 4 samples.

Results

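Leydig cells with little Insl3 were examined in single-cell RNA sequencing data of testicular organoids (TOs) and mouse testes. Members were chosen on their own UMIs (unique molecular identifiers, each standing for 1 captured RNA molecule). Kept barcodes held between 1000 and 5000 genes, up to 20000 UMIs and a mitochondrial share of UMIs of 10% or less. Among these, a Leydig cell had at least 8 UMIs of Cyp11a1 plus Hsd3b1 per 10000 with both genes detected, at most 2 UMIs of Sox9, Wt1 and Cldn11 together and no UMI of Ptprc. A member was a Leydig cell with less than 10 UMIs of Insl3 per 10000, and the remaining Leydig cells are called high-Insl3 cells here. Of 41484 kept cells in 4 libraries, 2064 were low-Insl3 Leydig cells and 1655 were high-Insl3 Leydig cells.

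The 4 libraries came from unsorted cells dissociated with enzymes, 2 of TOs (TO 1 and TO 2) and 2 of testes (testis 1 and testis 2), made with 10x Genomics Chromium. The TOs had been reassembled from suspended testis cells of mice in the first week after birth, first in matrix and later without it, in a medium containing serum replacement, antioxidants, follicle-stimulating hormone and testosterone, and the testes were taken from uncultured mice aged 28 days. The design and the methods of the study give the TOs as 28 days old too, an age of the organoid that does not include that of its donors, whereas the dissociation protocol in the labels names day 21. No allele or transgene is given for either group, and the methods name ICR mice for all but chimeric TOs, without naming the testis donors separately. In total, 14643 barcodes and 106577822 UMIs were deposited for TO 1 and 12491 barcodes and 119966959 UMIs for TO 2. Testis 1 had 12179 barcodes holding 77016449 UMIs, and testis 2 had 11826 holding 74988295. Filters kept 10759 and 9463 TO cells and 10804 and 10458 testis cells. Pairs of libraries shared from 30 to 55 barcode sequences, at most 0.440% of a library.

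Leydig cells are the steroid-producing cells between the seminiferous tubules. Luteinizing hormone acts on them through the receptor Lhcgr, Star brings cholesterol into the mitochondrion, Cyp11a1 with its electron carriers Fdx1 and Fdxr makes pregnenolone, and 3-beta-hydroxysteroid dehydrogenases (Hsd3b1, Hsd3b6), Cyp17a1 and Hsd17b3 carry it on to testosterone. Insl3, insulin-like 3, is a peptide hormone of the same cells, known for guiding testis descent and used as a mark of Leydig cell maturity. In mice, immature Leydig cells of the prepubertal testis give way to adult ones that make more testosterone and more Insl3.

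One library stood apart before any gene was compared. Low-Insl3 cells made up 1186 of 1202 Leydig cells in TO 2 (98.7%, Clopper-Pearson 95% interval 97.8 to 99.2%) but 685 of 1611 in TO 1 (42.5%, 40.1 to 45.0%). In the testes they were 96 of 544 (17.6%, 14.5 to 21.1%) and 97 of 362 (26.8%, 22.3 to 31.7%). Both TO values lay above both testis values, and the 2 TOs were further from each other than TO 1 was from either testis. The means were 70.6% ± 39.7 (SD, n = 2) in TOs and 22.2% ± 6.47 (SD, n = 2) in testes, and the exact two-sided permutation test gave p = 0.333, the smallest p that 2 against 2 libraries allow. Without TO 2 the difference between conditions was 20.3 percentage points, and without TO 1 it was 76.4. These intervals cover counting error only.

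Among all kept cells, the low-Insl3 Leydig cells were 6.37% and 12.5% in the TOs and 0.889% and 0.928% in the testes. The exact permutation test again gave p = 0.333 with n = 2 libraries in each group. Thinning each cell to 2000 UMIs, which put 704, 142, 3558 and 2269 shallower cells of TO 1, TO 2, testis 1 and testis 2 aside, gave shares among Leydig cells of 38.8%, 93.6%, 20.6% and 27.9%. The order of the 4 libraries was the same as without thinning. With the limit moved to 20 UMIs of Insl3 per 10000 the shares were 59.3%, 99.9%, 37.3% and 72.1%, and the conditions overlapped.

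**Figure D1:**
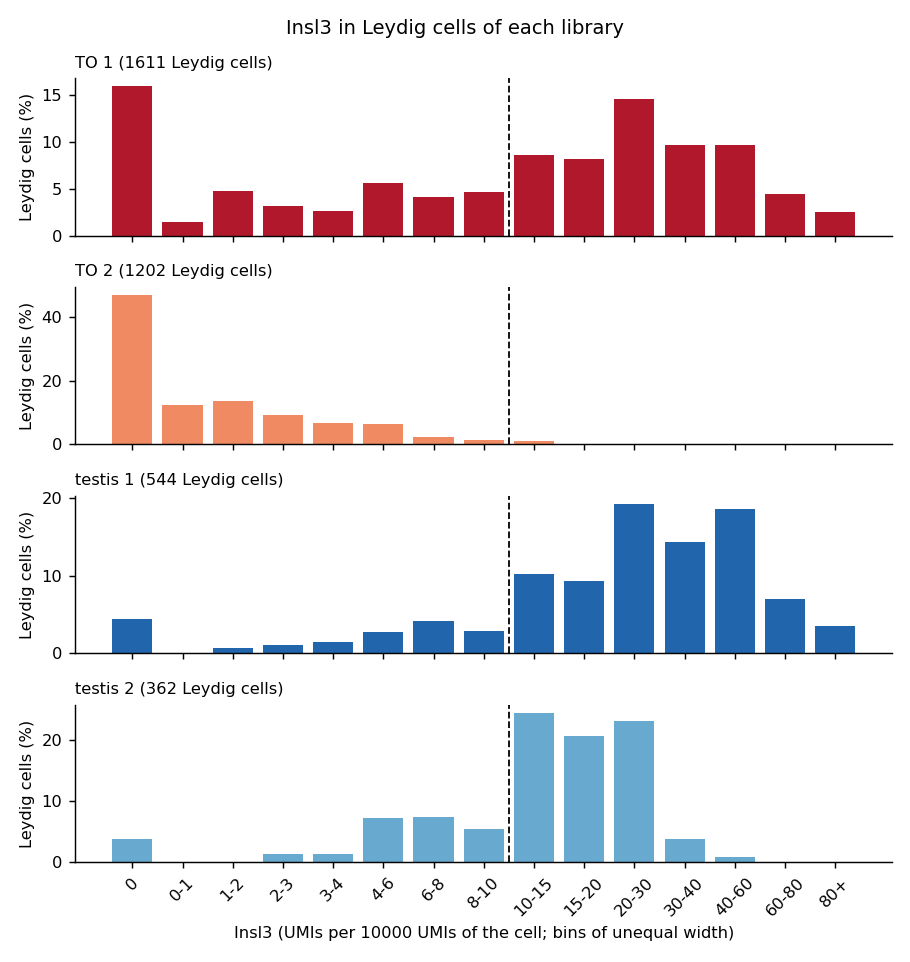
Share of Leydig cells (%, bars) by Insl3 level (UMIs per 10000 UMIs of the cell, in bins of unequal width) in each of the 4 libraries, with the limit of 10 as a dashed line and the axis of each panel on its own scale. TO 2 has nearly all of its 1202 Leydig cells left of the line, while TO 1 has cells on both sides and the testes have most cells to the right.

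Insl3 itself chose the members, so its level is given as a description. Its median was 1.81 and 0.632 UMIs per 10000 in low-Insl3 cells of TO 1 and TO 2, and 5.10 and 5.93 in those of testis 1 and testis 2. No Insl3 UMI was found in 37.5% and 47.5% of members in the TOs and in 25% and 14.4% in the testes. So the members of the testes lay nearer the limit and those of the TOs nearer 0. Pooled over members, Insl3 reached 3.35, 1.45, 5.33 and 6.18 UMIs per 10000 in TO 1, TO 2, testis 1 and testis 2, against 33.8, 12.8, 36.4 and 19.0 in high-Insl3 cells. Even the 16 high-Insl3 cells of TO 2 had a median of only 11.5.

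Some Insl3 RNA was also counted in cells that should not make it. In TO 1, Sertoli cells (at least 5 UMIs of Sox9, Wt1 and Cldn11 and none of Cyp11a1 or Hsd3b1) held 0.282 UMIs per 10000 and stromal cells with Pdgfra and Dcn 2.21, against 3.35 in the low-Insl3 Leydig cells. There, 62.5% of low-Insl3 cells (median depth 9335 UMIs), 38.7% of stromal cells (4367 UMIs) and 18.9% of Sertoli cells (10041.5 UMIs) had an Insl3 UMI. In TO 2 the levels were 1.45 in the members, 0.212 in stroma and 0.0135 in Sertoli cells, and an Insl3 UMI was found in 52.5% of members (13326.5 UMIs) and 1.28% of Sertoli cells (11327 UMIs). The members thus stood above Sertoli cells of like depth in both TOs, while in TO 1 the pooled level was 1.52 times that of stroma. How much of the Insl3 of single members came from free RNA was not tested. In GENCODE vM21 (GRCm38), Insl3 lies at chr8:71689214-71690575 on the plus strand, inside the annotated span of Jak3 on the same strand, so that reads shared by them may be lost in counting. Jak3 was at 4.72, 5.07, 3.69 and 1.45 CPM (counts per 1000000 UMIs of the summed cells) in the members of TO 1, TO 2, testis 1 and testis 2.

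At the limits of the rule, 75, 16, 16 and 20 members of TO 1, TO 2, testis 1 and testis 2 had 8 to 10 UMIs of Insl3 per 10000, and 50, 10, 19 and 30 cells just outside had 10 to 12. Cyp17a1 was at 1014, 452, 1194 and 9245 CPM inside this limit and 1486, 683, 2188 and 9616 CPM outside. Members with 8 to 10 UMIs of Cyp11a1 plus Hsd3b1 numbered 52, 36, 7 and 4. Before the limits on Sertoli genes and Ptprc, 1674, 1219, 559 and 362 cells had passed on Cyp11a1 and Hsd3b1, of which Sertoli genes removed 56, 11, 5 and 0 and Ptprc 7, 6, 10 and 0.

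Some Leydig genes that the rule had not used also set these cells apart from the other kept cells. Among genes of at least 100 CPM in the members of every library, the rule's own Hsd3b1 and Cyp11a1 were followed by Lhcgr in the median ratio to the kept cells outside both Leydig classes, a ranking chosen after the values were seen. Lhcgr was at 366, 290, 723 and 575 CPM in the members of TO 1, TO 2, testis 1 and testis 2, against 17.6, 16.7, 9.32 and 6.86 CPM in the other cells. Next came the potassium channel gene Kcnd2, the insulin-like growth factor binding protein Igfbp2, and Cdon, a cell surface co-receptor of hedgehog. Igfbp2 was at 707, 323, 983 and 924 CPM in members and 30.3, 25.1, 34.9 and 20.5 CPM in other cells. Msmo1 of cholesterol synthesis, Fdx1 and Fdxr, the prolactin receptor Prlr, the melanocortin receptor partner Mrap, the estrogen receptor Esr1 and the retinaldehyde dehydrogenase Aldh1a1 were also among the 25 leading genes. Every one of these was higher in members than in those cells in all 4 libraries, which a ranking by this ratio favours. Other Leydig genes were less distinct in TO 1 and TO 2. Star was at 34.4 and 10.2 CPM in members and 26.5 and 9.93 CPM in other cells. Hsd3b6 was at 7.55 and 36.7 against 5.95 and 14.8 CPM, and Hsd17b3 at 1.89 and 0.922 against 0.782 and 0.411 CPM. Cyp17a1 (1031 and 97.8 against 37.7 and 0.965 CPM) and Nr5a1 (119 and 90.4 against 24.9 and 19.7 CPM) stood higher in these members.

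Genes of fetal Leydig cells were low. Dlk1, Thbs2, Mc2r, Crhr1 and Vsnl1 summed to 3.30 and 5.40 CPM in the members of TO 1 and TO 2 and to 0 in both testes, where a count of 0 allows up to 5.54 and 4.34 CPM for 1 gene (3 UMIs). Markers of other cell types were present at low levels. The 8 macrophage markers summed to 104, 49.5, 29.5 and 2.90 CPM, with Lyz2 the most abundant in the TOs (81.0 and 35.0 CPM), Adgre1 in testis 1 (6 UMIs) and Ptprc, a gene of the rule, at 0. In testis 2 the sum was 1 UMI each of Lyz2 and C1qb. The 4 endothelial markers summed to 14.9, 10.1, 1.85 and 11.6 CPM, with Cdh5 leading. The 8 Sertoli markers summed to 363, 187, 142 and 304 CPM, mostly Aard (205, 135, 131 and 295 CPM), and Amh was at 0 in all 4. Of these 8, Sox9, Wt1 and Cldn11 are genes of the rule, which held each member to at most 2 UMIs of them together.

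Muscle and stroma genes were more uneven. The 5 markers of myoid and smooth muscle cells summed to 479 CPM in TO 1, 76.9 in TO 2, 140 in testis 1 and 10.1 in testis 2, and Acta2 made up most of each sum. The 10 stroma and progenitor genes summed to 1753, 1098, 1578 and 553 CPM, with Dcn the most abundant in TO 1, Nr2f2 in TO 2 and testis 2 and Col3a1 in testis 1. TO 1 was highest for both lists and testis 2 lowest. Germ cell RNA divided the conditions: 12 germ cell markers summed to 85.6 and 53.7 CPM in the members of the TOs and to 2651 and 7363 CPM in those of the testes. The protamine gene Prm1 was at 0.157 and 0.395 CPM in the TO members and 987 and 2372 CPM in the testis members, against 3363 and 22486 CPM in the other testis cells. Doublet scores were uneven as well, with 11.8%, 3.63%, 15.6% and 38.1% of members among the top-scoring barcodes of Scrublet in TO 1, TO 2, testis 1 and testis 2, against 11.1%, 6.25%, 9.82% and 7.92% of high-Insl3 cells.

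The first comparison asked how low-Insl3 cells differed from high-Insl3 cells of the same library. UMIs were summed per library and class and tested with edgeR, with the library as a block, over 11059 genes, and a call required both an adjusted p (Benjamini-Hochberg) under 0.01 and a log2 fold change beyond 1. Called genes were few: 37 were higher in low-Insl3 cells (0.335% of the genes tested) and 28 were lower (0.253%). Lower genes included Cyp17a1 and 4 kallikreins, and higher ones included the hormone gene Stc1 and the GATA cofactor Zfpm2. The low-Insl3 sums held 6357728, 15188772, 541993 and 690580 UMIs in TO 1, TO 2, testis 1 and testis 2, and the high-Insl3 sums 11404565, 155014, 2971348 and 2796534. The 155014 UMIs of 16 cells in TO 2 limit every value drawn from that library, since a count of 0 there allows up to 19.4 CPM. Low-Insl3 cells were shallower than high-Insl3 cells in TO 1, testis 1 and testis 2 (medians of 9335 against 12565.5, 5512.5 against 6377 and 7404 against 10199 UMIs), and the part of depth in the differences was not tested.

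Of the 10 steroidogenic enzymes and cholesterol delivery genes, all tested, 1 was lower and 0 were higher. Among all genes tested, 0.253% were lower and 0.335% higher. The median log2 fold change of the list was −0.36 against 0.03 over all genes tested. Cyp17a1, the 17-alpha-hydroxylase that leads to androgens, was the called gene. It was at 1031, 97.8, 710 and 7278 CPM in low-Insl3 cells of TO 1, TO 2, testis 1 and testis 2 and at 1425, 374, 4099 and 11372 CPM in high-Insl3 cells. Low-Insl3 cells had less of it in every library, by a factor that varied widely, and among low-Insl3 cells testis 1 and testis 2 differed more from each other than the classes did in any library. The log2 fold change was −1.35 ± 0.22 (SE, edgeR adjusted p = 0.00197). Without testis 1 it was −0.92, short of the fold limit. It was also not called with DESeq2 or with no library block.

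Star did not pass. It was at 34.4, 10.2, 319 and 471 CPM in low-Insl3 cells and 31.6, 6.45, 400 and 748 CPM in high-Insl3 cells, with a log2 fold change of −0.37 ± 0.13 (edgeR adjusted p = 0.0965). In the TOs the classes were alike and far below both testes. Hsd3b6, a second 3-beta-hydroxysteroid dehydrogenase of adult Leydig cells, stood at −0.66 ± 0.17 (edgeR adjusted p = 0.0315), and Fdx1, the electron carrier of Cyp11a1, at −0.26 ± 0.09 (edgeR adjusted p = 0.0892). Hsd17b3, which makes testosterone from androstenedione, was seen mainly in testis 2, at 220 CPM in low-Insl3 and 328 CPM in high-Insl3 cells, and at 0 UMIs in the members of testis 1. Its log2 fold change of −1.56 ± 0.35 missed the limit (edgeR adjusted p = 0.0128).

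**Figure D2:**
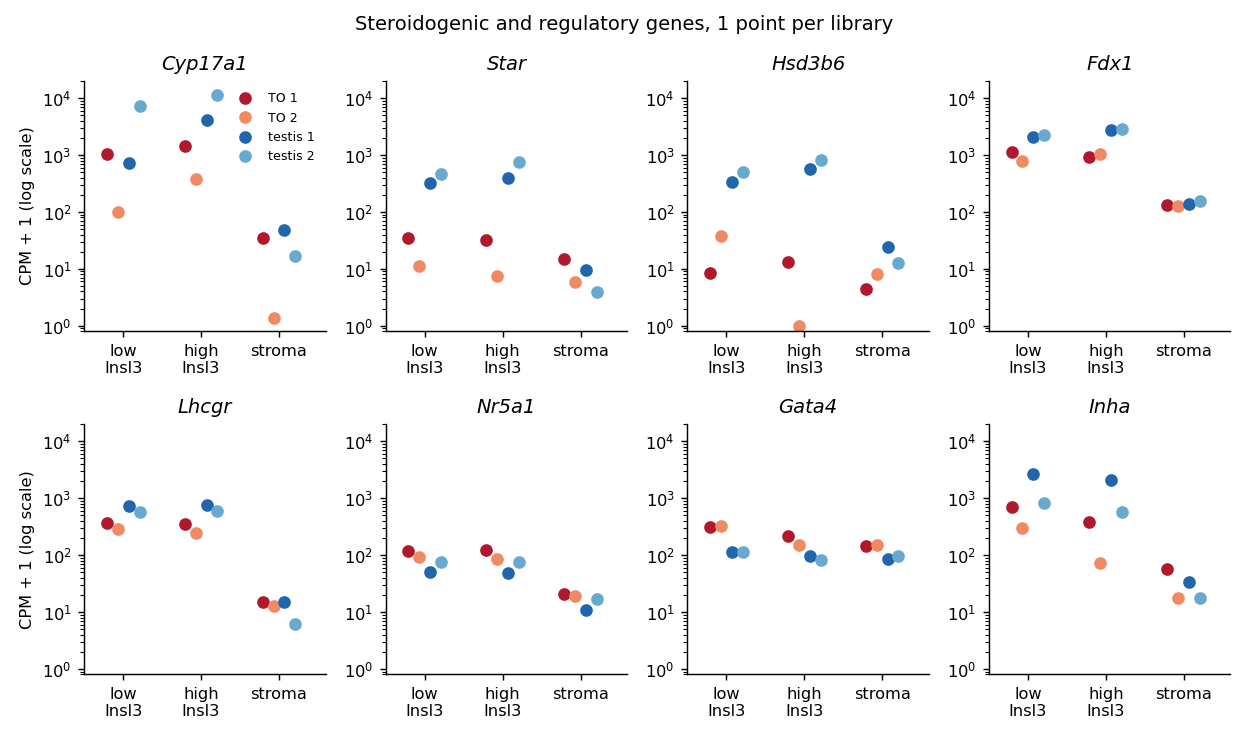
Level of 8 genes (CPM + 1, log scale, 1 point per library) in low-Insl3 Leydig cells, high-Insl3 Leydig cells and stromal cells with Pdgfra and Dcn. Star and Hsd3b6 separate the 2 TO libraries from the 2 testes in both Leydig classes, while Lhcgr is at like levels in both classes of each library.

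Receptors and regulators showed no calls among 14 tested of 17 listed, and their median was −0.06. Lhcgr, the luteinizing hormone receptor, had a log2 fold change of −0.03 ± 0.08 (edgeR adjusted p = 0.900), and Nr5a1, the nuclear receptor that drives steroidogenic genes, of −0.08 ± 0.13 (edgeR adjusted p = 0.804). Inha, the inhibin alpha subunit, was at 690, 294, 2672 and 808 CPM in low-Insl3 cells and 380, 71.0, 2059 and 581 CPM in high-Insl3 cells. It was higher in the low-Insl3 cells of every library, most of all in TO 2, and the value across libraries was below the fold limit (0.62 ± 0.13, edgeR adjusted p = 0.00786). Mrap, a partner of the melanocortin receptor listed with the adrenal-type genes, was lower in all 4 libraries at −0.65 ± 0.10 (edgeR adjusted p = 0.00135), also inside the fold limit. Of the 3 tested adrenal-type genes, Cyp21a1, the 21-hydroxylase of the adrenal, was the one called, beside 0.253% lower among all genes tested. It was at −2.35 ± 0.39 (edgeR adjusted p = 0.00191), but it rested on 15, 43, 0 and 8 UMIs in low-Insl3 cells of TO 1, TO 2, testis 1 and testis 2.

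Cholesterol synthesis and uptake genes, all 22 tested, had no call, a median of −0.15 and 21 values below 0. The 20 antioxidant enzymes had no call and a median of −0.25, with 16 values below 0. Among them was Prdx1, a peroxide-reducing enzyme, at 2043, 1908, 2028 and 2217 CPM in low-Insl3 cells and 2583, 2471, 2564 and 2864 CPM in high-Insl3 cells. This difference was small but present in each library (−0.42 ± 0.06, edgeR adjusted p = 0.000575). Igfbp7, a secreted binding protein, was lower in each library too (−0.65 ± 0.10, edgeR adjusted p = 0.00135). There was no call among 12 tested cell division genes (median 0.27), 12 immediate-early and stress genes (0.26), 6 insulin-like growth factor genes (0.06), 4 stroma genes (−0.16), 3 genes of androgen metabolism (0.15) and 2 hedgehog response genes (0.04). One Sertoli marker (Rhox8, 1.04), 1 endothelial marker (0.18) and 2 germ cell markers (median 0.17) were tested without a call, and no macrophage, myoid or fetal Leydig gene passed the filters on low counts and on genes of other cells. The summed myoid markers were nonetheless higher in low-Insl3 cells of every library, at 479, 76.9, 140 and 10.1 CPM in TO 1, TO 2, testis 1 and testis 2 against 186, 6.45, 93.9 and 4.29 CPM in high-Insl3 cells. Germ cell markers were higher in low-Insl3 cells of testis 1 and testis 2, at 2651 and 7363 CPM against 1803 and 3913 CPM. Their part in the differences between the classes was not tested.

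The tissue kallikreins, serine proteases encoded side by side on chromosome 7, were the list with the largest share of calls. All 4 tested of 14 listed were lower in low-Insl3 cells, with a median of −1.92. Among all genes tested, 0.253% were lower and the median was 0.03. The Klk1b genes are near copies, so their calls are not fully separate. Klk1b24 was at 116, 112, 18.5 and 229 CPM in low-Insl3 cells of TO 1, TO 2, testis 1 and testis 2 and at 890, 335, 57.5 and 400 CPM in high-Insl3 cells (−1.95 ± 0.26, edgeR adjusted p = 0.000347). Klk1b27 was at 131, 95.8, 9.23 and 430 CPM against 1270, 200, 50.8 and 605 CPM (−1.88 ± 0.35, edgeR adjusted p = 0.00447). Klk1b21 was at 136, 119, 35.1 and 288 CPM against 802, 406, 49.1 and 440 CPM (−1.66 ± 0.25, edgeR adjusted p = 0.000983). All 3 were lower in low-Insl3 cells of every library, most of all in TO 1. Klk1 itself, at −2.06 ± 0.40 (edgeR adjusted p = 0.00549), rested on 46, 165, 0 and 21 UMIs. Klk1b24 was called without any 1 library, with a fold from −2.41 to −1.21, but without TO 1 the other 3 were not, with Klk1b27 at −0.86 and Klk1 at −0.55.

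The 3 kallikrein genes that lead this list are near copies, and their promoters are shown because they were lower together and because reads of such copies can be split or lost in counting. The RefSeq sequences (GRCm38.p6, plus strand, from 250 bases before to 50 bases after the start site) are written 5′ to 3′, and capitals mark TGACCT, which is AGGTCA, the half-site of many nuclear receptors, on the opposite strand. They lie at chr7:44102042-44102341, chr7:44187986-44188285 and chr7:44052040-44052339, in this order.
Klk1b21: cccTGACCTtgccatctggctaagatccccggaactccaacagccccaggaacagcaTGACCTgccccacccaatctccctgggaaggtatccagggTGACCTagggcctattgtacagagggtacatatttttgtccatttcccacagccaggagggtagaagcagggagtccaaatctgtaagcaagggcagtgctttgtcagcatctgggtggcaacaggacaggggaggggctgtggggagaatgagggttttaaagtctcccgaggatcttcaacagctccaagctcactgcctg
Klk1b24: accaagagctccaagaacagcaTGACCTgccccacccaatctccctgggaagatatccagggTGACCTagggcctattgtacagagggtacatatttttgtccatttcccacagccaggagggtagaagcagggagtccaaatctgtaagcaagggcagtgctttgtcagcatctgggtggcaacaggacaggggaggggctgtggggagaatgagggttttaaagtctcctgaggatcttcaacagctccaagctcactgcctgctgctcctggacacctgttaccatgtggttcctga
Klk1b27: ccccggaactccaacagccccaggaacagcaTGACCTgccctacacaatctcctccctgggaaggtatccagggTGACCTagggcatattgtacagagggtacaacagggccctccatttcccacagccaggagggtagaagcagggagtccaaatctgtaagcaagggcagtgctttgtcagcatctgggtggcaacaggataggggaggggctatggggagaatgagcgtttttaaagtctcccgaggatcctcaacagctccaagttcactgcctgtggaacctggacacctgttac
Over aligned bases, Klk1b21 and Klk1b24 were 97.7% identical, Klk1b21 and Klk1b27 94.5% and Klk1b24 and Klk1b27 91.3%. The AGGTCA search covered both strands and found 3, 2 and 2 matches in Klk1b21, Klk1b24 and Klk1b27. Of 32851 promoters of 300 bases, 16.3% hold at least 1 match. The promoters of Insl3 (chr8:71689002-71689301, plus strand), of Hsd3b6 and of Lcn2, which was also lower in low-Insl3 cells of every library, hold none.

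Among other genes lower in low-Insl3 cells, those with the largest folds at 50 CPM or more had varied functions. Lcn2, the iron-carrier binding protein lipocalin 2, was at 1244, 735, 25.8 and 1381 CPM in low-Insl3 cells of TO 1, TO 2, testis 1 and testis 2 and at 4762, 3980, 173 and 2614 CPM in high-Insl3 cells (−1.92 ± 0.17, edgeR adjusted p = 6.04e-06). Lrg1, a secreted leucine-rich glycoprotein, had the largest fold, −2.77 ± 0.24 (edgeR adjusted p = 4.19e-06), with 7.71, 7.64, 3.69 and 17.4 CPM against 42.9, 96.8, 12.5 and 90.8 CPM. Both were lower in every library, and both kept their call without any 1 library. Cd14, the lipopolysaccharide co-receptor, was measured almost only in TOs (24.9 and 75.5 CPM against 83.8 and 497 CPM) and reached −2.26 ± 0.19 (edgeR adjusted p = 4.19e-06). In TO 2 the 16 high-Insl3 cells also held 323 CPM of macrophage markers against 49.5 CPM in the low-Insl3 cells. In TO 1 these markers went the other way, at 36.9 CPM in high-Insl3 cells against 104 CPM in low-Insl3 cells. The part of macrophage RNA in Cd14 was not tested. Ptgds, a prostaglandin D2 synthase, was at −1.54 ± 0.15 (edgeR adjusted p = 1.38e-05) and was called without any 1 library. The fatty acid transporter Cd36 (−1.55), the betaine-homocysteine methyltransferase Bhmt (−1.53) and the surface protein Ly6k (−1.39) completed the group. In TO 2, Ly6k went the other way (18.4 CPM in low-Insl3 against 6.45 CPM in high-Insl3 cells) and Cd36 was alike (12.6 and 12.9 CPM). Ly6k was at 178 and 194 CPM in the other testis cells against 127 and 91.2 CPM in the testis members, and the part of RNA from those cells was not tested.

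Fewer genes of 50 CPM or more were called higher in low-Insl3 cells, 7 in all. Stc1, stanniocalcin 1, a secreted glycoprotein hormone, was at 109 CPM in the low-Insl3 cells of both TOs against 16 and 6.45 CPM in their high-Insl3 cells, and at 5.54 and 4.34 CPM in those of the testes against 6.06 and 2.15 CPM (2.38 ± 0.27, edgeR adjusted p = 6.86e-05). The difference was thus seen in the TOs, with 3 UMIs in the members of each testis. Zfpm2, a cofactor of GATA factors known as FOG2, was at 119, 134, 18.5 and 20.3 CPM against 32.2, 6.45, 9.09 and 5.01 CPM (1.80 ± 0.20, edgeR adjusted p = 6.86e-05). It was higher in every library, and also high in stroma (229, 238, 126 and 198 CPM). Magi2, a scaffold protein, was at 258, 358, 148 and 162 CPM against 102, 96.8, 90.9 and 80.1 CPM (1.09 ± 0.14, edgeR adjusted p = 0.000203), with 279, 301, 199 and 268 CPM in stroma. The transcription factors Npas3 (1.60) and Zfp462 (1.13), the kinase Tnik (1.10) and the regulatory subunit Prkar2b of protein kinase A (1.06) were higher as well. Zfpm2, Magi2 and Tnik overlap other annotated genes on the same strand.

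**Figure D3:**
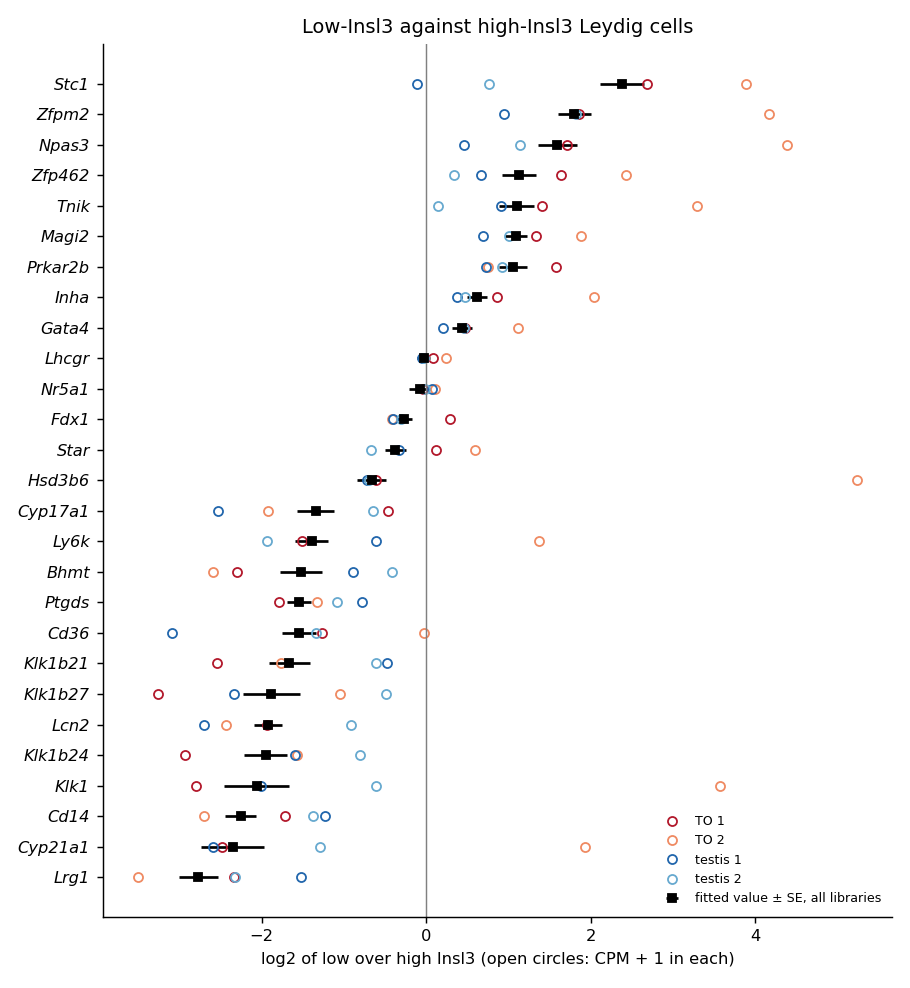
Log2 fold change of low-Insl3 over high-Insl3 Leydig cells for called and listed genes, with the edgeR value across libraries and its SE (squares) and the ratio of CPM + 1 in each library (open circles). The circles of TO 2 rest on 16 high-Insl3 cells, and Lrg1, Lcn2 and the 3 Klk1b genes are below 0 in all 4 libraries.

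The count of called genes depended on TO 1, the library with most high-Insl3 cells. Without it, 2 genes were higher and 5 lower, and without testis 1, 60 were higher and 48 lower. Across the TO libraries alone 176 were higher and 93 lower, across the testes alone 23 and 44, and with no library block 0 and 0 (303 genes at an unadjusted p under 0.05 by edgeR). DESeq2 called 2 and 8, with no adjusted p for 8362 genes. It called 6 of the 20 called genes named here, and Cyp17a1, Lrg1, Stc1 and Zfpm2 were among those that it did not call. Of the 20 called genes named here, 5 of 18 tested were called without TO 1, and Cd36, Bhmt, Ly6k, Klk1b21, Klk1b27, Klk1 and all 7 higher genes were not. Each kept its direction. With 1 library left out, the smallest fold was below 1 in size for Klk1b27, Klk1, Cyp17a1 (−0.92), Zfp462 (0.74), Tnik (0.88), Magi2 (0.95) and Prkar2b (0.80). With any 1 library left out, the fold stayed between −1.67 and −1.37 for Cd36 and between 1.67 and 1.89 for Zfpm2. For Npas3 it was between 1.40 and 1.59 in the 3 such fits that tested it. Without TO 2, Tnik, Zfp462 and Magi2 were not called.

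Within the members, the level of Insl3 moved together with Cyp17a1 in 3 of 4 libraries, given here as a description of summed cells. In testis 1, Cyp17a1 was at 218 CPM in 24 cells without an Insl3 UMI, 478 CPM at over 0 to 5 UMIs of Insl3 per 10000, 903 CPM at 5 to 10 and 6175 CPM in the cells at 40 and over. In testis 2 it was at 2735, 5140 and 8384 CPM in the 3 bins of members, and in TO 2 at 51.2, 116 and 252 CPM. In TO 1 it was at 404 CPM without Insl3 and between 1265 and 1539 CPM in all other bins, with no further rise. The cells without Insl3 were shallow in the testes, with medians of 2281 and 3402 UMIs. Lhcgr was also lower in the bin without Insl3 than in the next bin in all 4 libraries (262 and 430, 271 and 310, 259 and 697, 306 and 620 CPM). Igf1, which was at 1079 and 1040 CPM in TO stroma, was at 153, 105 and 76.6 CPM in the 3 member bins of TO 1 and at 34.3, 14.5 and 8.04 CPM in those of TO 2. The bins share their libraries, and depth moved with them.

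**Figure D4:**
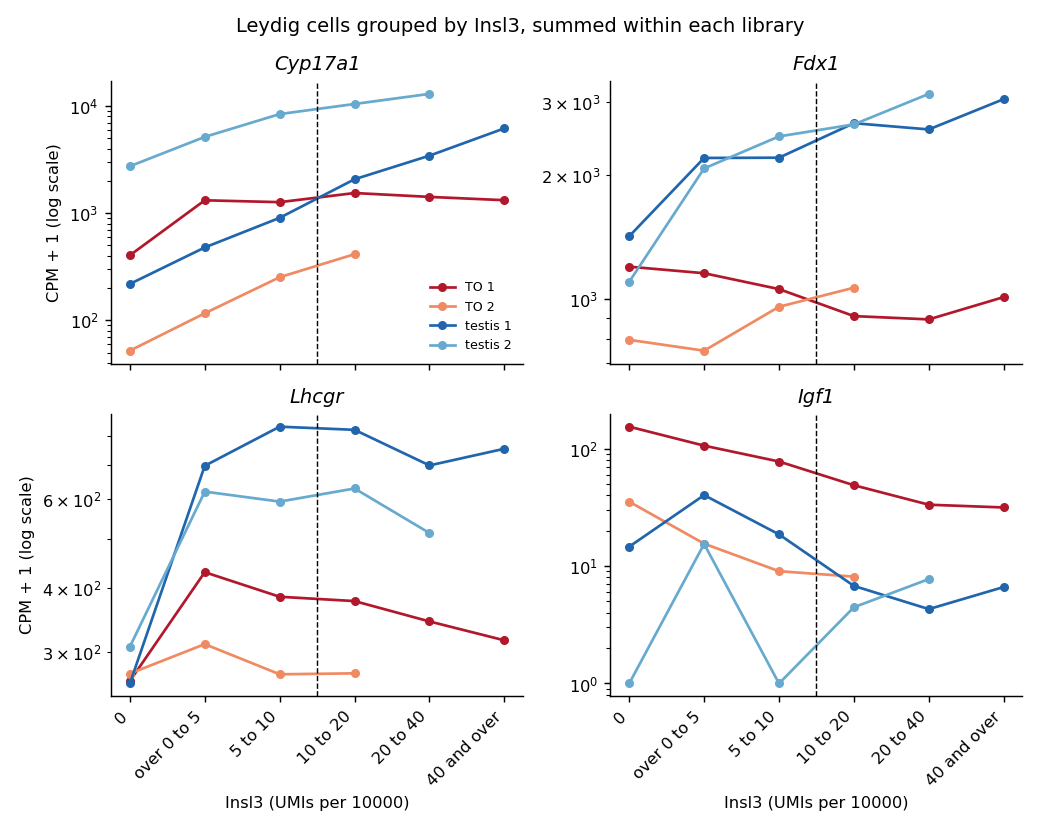
Level of 4 genes (CPM + 1, log scale, each panel on its own scale) in Leydig cells grouped by Insl3 (UMIs per 10000) and summed within each library, for groups of at least 10 cells, with the limit of 10 as a dashed line. Cyp17a1 is higher in each further bin of TO 2 and both testes but level in TO 1 above 0, and Igf1 is lower in each further bin of both TOs.

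The second comparison asked how low-Insl3 cells of TOs differed from those of testes. With edgeR over 12242 genes, 220 were higher in TOs (1.80%) and 1239 were lower (10.1%). Most lower genes were more abundant in the rest of the testis, spermatid genes among them: 1172 of the 1239 (94.6%) had a higher CPM in the other cells than in the members in both testes, against 34.2% of all genes tested. The 10 with the largest folds at 50 CPM or more were 1700009N14Rik, Scp2d1, 1700092M07Rik, 1700013G24Rik, Gm9999, 1700093K21Rik, Gm15517, Capza3, Lrrc18 and Hils1, and each was higher in the other testis cells than in the testis members. Hils1, a spermatid linker histone, had 0 and 9 UMIs in the members of TO 1 and TO 2 and 121 and 105 UMIs in those of the testes, at 223 and 152 CPM against 652 and 699 CPM in the other testis cells. With genes left out from 2 times the level in other cells in place of 5 times, 64 were higher and 26 lower, and all of these 90 were among the 1459. Without Scrublet doublets the counts were 64 and 369, and without testis 1 they were 151 and 644.

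Apart from the fixed gene lists, the lower genes described below are therefore from the 67 that were not higher in the other cells of both testes, of which 46 reached 50 CPM, a choice made after the values were seen. Steroid genes were among them. Star, the cholesterol carrier, was at 34.4 and 10.2 CPM in the members of TO 1 and TO 2 and at 319 and 471 CPM in those of testis 1 and testis 2. The groups did not overlap, and the log2 fold change was −4.20 ± 0.55 (edgeR adjusted p = 0.00118). The TO values were near those of the other TO cells, 26.5 and 9.93 CPM. Hsd3b6 was at 7.55 and 36.7 CPM against 338 and 511 CPM (−4.21 ± 0.68, edgeR adjusted p = 0.00337). Both genes were called without any 1 library. Neither was called when members were limited to under 5 UMIs of Insl3 per 10000, nor was Hsd3b6 with genes left out from 2 times the level in other cells, while the fold stayed between −5.21 and −3.52 for Star and between −5.80 and −3.47 for Hsd3b6 in all alternatives. In high-Insl3 cells Star was at 31.6 and 6.45 CPM in TOs and 400 and 748 CPM in testes, so its split by condition was not particular to cells with low Insl3.

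Other steroidogenic genes did not pass. Of 9 tested in the list, 2 were lower and 0 higher, beside 10.1% lower among all genes tested. All 9 values were below 0 with a median of −0.43 against 0.09 over all genes tested. Cyp17a1 had a log2 fold change of −2.84 ± 1.21 (edgeR adjusted p = 0.145), and TO 1 lay above testis 1. With 1 library left out it ranged from −5.29, without TO 1, to −0.37, without testis 2, and it was called without TO 1 or TO 2. Fdx1 was at 1133 and 782 CPM in TO members and 2090 and 2282 CPM in testis members (−1.21 ± 0.32, edgeR adjusted p = 0.0353), and Lhcgr was at −1.0 ± 0.28 (edgeR adjusted p = 0.0428). In both, the groups did not overlap. Of 22 cholesterol genes, 2 were lower and 0 higher, with a median of −0.46, a share not above the 10.1% lower among all genes tested. They were Dhcr7, the last reductase of cholesterol synthesis, at 49.2 and 30.9 CPM against 125 and 140 CPM (−1.75 ± 0.27, edgeR adjusted p = 0.00287), and Lss, lanosterol synthase, at −1.42 ± 0.28 (edgeR adjusted p = 0.00905).

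The largest falls beyond steroid genes were in a varied group. Ass1, argininosuccinate synthase of arginine synthesis, was at 14.3 and 5.93 CPM in TO members and 2216 and 853 CPM in testis members (−7.31 ± 0.70, edgeR adjusted p = 0.000282). Apoc1, an apolipoprotein, was at 12.3 and 5.33 CPM against 605 and 197 CPM (−5.58 ± 0.65, edgeR adjusted p = 0.000707). Ren1, renin, had 2 and 4 UMIs in TO members and 131 and 17 UMIs in testis members (0.315 and 0.263 CPM against 242 and 24.6 CPM). All 3 were also low in the TOs and high in the testes among high-Insl3 cells. The amino acid transporter Slc38a1 was at 13.5 and 15.9 CPM against 144 and 165 CPM (−3.38 ± 0.25, edgeR adjusted p = 0.000125). Of 13 tested cell division genes, 7 were lower and 0 higher, with a median of −1.95, beside 10.1% lower and a median of 0.09 among all genes tested. One of the 7 was Top2a, a DNA topoisomerase that was not one of the 67, at 10.9 and 15.3 CPM in TO members and 72.0 and 62.3 CPM in testis members, against 97.8 and 75.5 CPM in the other testis cells. The part of germ cell RNA in this list was not tested.

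**Figure D5:**
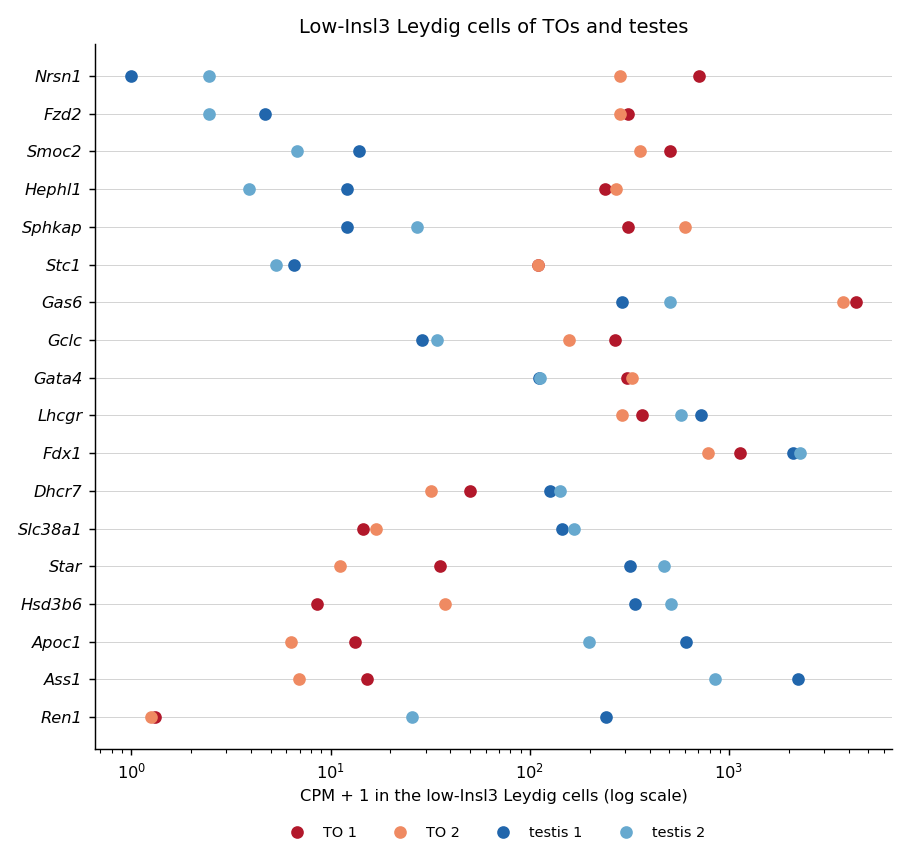
Level of 18 genes (CPM + 1, log scale) in the low-Insl3 Leydig cells of each library, 1 point per library. The 2 TO libraries lie to the right of both testes from Nrsn1 to Gata4 and to the left of both from Lhcgr to Ren1.

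Of the 220 genes higher in TO members, 51 had a higher level in the other cells of both TOs and 169 did not. Nrsn1, a neuronal vesicle membrane protein, had the largest fold, with 4494 and 4276 UMIs (707 and 282 CPM) in TO members and 0 and 1 UMIs in testis members. Pooled, its level was 502 times that in the testes, with a counting interval of 90.0 to 19818. It was as marked in high-Insl3 cells, at 911 and 83.9 CPM in TOs and 0 and 0.715 CPM in testes. Fzd2, a Wnt receptor, was at 312 and 282 CPM against 3.69 and 1.45 CPM, a pooled ratio of 119 (40.9 to 579) that rested on 3 testis UMIs, and stroma held 68.4 and 105 CPM in the testes. Smoc2, a matrix protein, was at 507 and 355 CPM against 12.9 and 5.79 CPM (5.56 ± 0.43, edgeR adjusted p = 0.000129). Hephl1, a copper-binding ferroxidase, was at 238 and 269 CPM against 11.1 and 2.90 CPM (5.26 ± 0.46, edgeR adjusted p = 0.000193) and was scarce in stroma (4.06, 2.08, 0.616 and 0 CPM).

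Stc1 was higher in TO members at 4.47 ± 0.35 (edgeR adjusted p = 0.000135), and Ccn5, a matricellular protein, at 4.36 ± 0.54 (edgeR adjusted p = 0.000940). Sphkap, an anchoring protein of protein kinase A, was at 312 and 604 CPM against 11.1 and 26.1 CPM (4.59 ± 0.51, edgeR adjusted p = 0.000584). The mannosidase Man1a (4.85), Clca3a1 (4.55) and Xkr4 (5.90, with 1 UMI in the testes) completed the 10 with the largest folds. Gas6, a growth factor for TAM receptor kinases and the called gene with the highest level in TO members, was at 4350 and 3753 CPM against 290 and 502 CPM (3.35 ± 0.40, edgeR adjusted p = 0.000796). High-Insl3 cells had 4197 and 3303 CPM in TOs and 291 and 458 CPM in testes, so that Gas6 also split by condition and not by Insl3.

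Listed regulators, growth factor and stress genes are set against all genes tested, of which 1.80% were higher and 10.1% lower, with a median of 0.09. Of 14 receptors and regulators, 2 were higher and 0 lower (median 0.58): Gata4, a transcription factor of gonadal somatic cells, at 306 and 324 CPM against 111 and 112 CPM (1.50 ± 0.25, edgeR adjusted p = 0.00383), and the growth hormone receptor Ghr at 62.6 and 86.2 CPM against 24.0 and 11.6 CPM (2.11 ± 0.40, edgeR adjusted p = 0.00741). In both, TO and testis values did not overlap, but the other TO cells held more Ghr than the members (75.8 and 122 CPM). Nr5a1 was at 0.72 ± 0.27 (edgeR adjusted p = 0.111). Of 6 insulin-like growth factor genes, the receptor Igf1r was lower (−1.70 ± 0.31, edgeR adjusted p = 0.00612) and the binding protein Igfbp3 higher (3.39 ± 0.63, edgeR adjusted p = 0.00663). Igfbp3 rested on 2 testis UMIs, with a pooled ratio of 11.0 (3.01 to 90.8). Its level of 15.9 and 18.6 CPM in TO members was below the 64.5 and 38.8 CPM of the other TO cells. Of 20 antioxidant enzymes, 1 was called: Gclc, which limits glutathione synthesis, was higher at 266 and 156 CPM against 27.7 and 33.3 CPM (2.76 ± 0.34, edgeR adjusted p = 0.000928). The list median was −0.07. The TO medium contained glutathione, and its part in Gclc was not tested.

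Of 12 immediate-early and stress genes, Junb (2.25) and Hspa1b (2.53) were higher and none lower, with a median of 1.48, beside 1.80% higher and a median of 0.09 among all genes tested. Junb was at 885 and 463 CPM in TO members, below the 1529 and 1247 CPM of the other TO cells. The part of RNA from other cells in Ghr, Igfbp3 and Junb was not tested. There was no call among 5 tested kallikreins (median −0.36), 4 genes of androgen metabolism (−0.70), 4 stroma genes (0.64), 2 hedgehog response genes (0.79) and 2 adrenal-type genes (−2.16). One Sertoli marker (Rhox8, 2.54) and 1 endothelial marker (1.08) were tested without a call. Of 3 tested germ cell markers Piwil1 and Tex36 were lower (median of the 3, −4.32), beside 10.1% lower among all genes tested. Several listed calls were lost when 1 library was left out: Gata4 and Lss were not called without TO 2, testis 1 or testis 2, Igf1r without TO 1 or testis 2, Hspa1b without testis 1 or testis 2, Ghr and Junb without testis 2 and Dhcr7 without TO 2. Igfbp3 was not called without any of the 4. All 8 kept their direction, and the fold changed little for Gata4 (1.46 to 1.61) and Igfbp3 (3.22 to 3.58) and more for Ghr (1.65 to 2.70) and Hspa1b (1.82 to 3.07). Without Scrublet doublets none of these 8 was called. Over all alternatives, Gata4 was at 1.24 to 1.68, Ghr at 1.65 to 2.70, Junb at 1.81 to 2.90 and Hspa1b at 1.82 to 3.07. Igfbp3 was at 2.92 to 3.99, Igf1r at −1.99 to −1.30, Dhcr7 at −2.04 to −1.02 and Lss at −1.59 to −0.63. With members under 5 UMIs of Insl3 per 10000, 15 of 28 tested named genes were called, and Sphkap, Ccn5 and Clca3a1 were among those that were not.

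The third comparison asked whether the difference between low-Insl3 and high-Insl3 cells was itself different in TOs and testes. In the edgeR interaction test over 11059 genes, 16 had a higher low-over-high ratio in TOs (0.145%) and 14 a lower one (0.127%). Adh1, an alcohol dehydrogenase, was at 502 and 239 CPM in low-Insl3 cells of TO 1 and TO 2 against 184 and 77.4 CPM in high-Insl3 cells, while in testis 1 and testis 2 it was at 79.3 and 37.6 CPM against 102 and 47.6 CPM. It was thus higher in low-Insl3 cells of both TOs and lower in those of both testes, with an interaction of 1.77 ± 0.24 (log2, edgeR adjusted p = 7.09e-06). Ly6d, a small surface protein, went the other way, at 20.1 and 0.658 CPM against 98.8 and 6.45 CPM in the TOs and 140 and 408 CPM against 99.3 and 221 CPM in the testes (−3.10 ± 0.27, edgeR adjusted p = 5.01e-11). The value of TO 2 in high-Insl3 cells was 1 UMI there. Without TO 1, 3 genes were higher and 4 lower, and neither Adh1 nor Ly6d was called, although with any 1 library left out the interaction stayed between 1.81 and 1.95 for Adh1 and between −3.99 and −2.87 for Ly6d.

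The conditions were not uniform inside. In the members of the testes, 45 of 2204 genes that reached 100 CPM in either library differed by over 4 times between testis 1 and testis 2, and in the TOs 17 of 2029 did so between TO 1 and TO 2. Cyp17a1 was in both groups, with 710 against 7278 CPM in the testes and 1031 against 97.8 CPM in the TOs. Sult1e1, estrogen sulfotransferase, was at 714 and 147 CPM in TO 1 and TO 2 and at 3.69 and 620 CPM in testis 1 and testis 2. Lcn2 was at 25.8 CPM in testis 1 and 1381 CPM in testis 2, Ptgds at 3.69 and 274 CPM, and Hsd17b3 at 0 and 220 CPM. The same genes differed in the same direction in the high-Insl3 cells of the testes, at 173 and 2614 CPM for Lcn2, 7.07 and 582 CPM for Ptgds and 25.6 and 328 CPM for Hsd17b3. In the other direction, Mt3, a metallothionein, was at 924 CPM in testis 1 and 37.6 CPM in testis 2. All 17 genes of the TOs were higher in TO 1, and 8 of them, Igf1, Fhl2, Adamts5, Slit3 and Acta2 included, were at least 5 times higher in the stroma of TO 1 than in its members. With 1 library each, these differences have no test.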

How the data were processed

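The authors made the deposited counts with Cell Ranger 7.1.0 and mm10, per the submitters' notes and labels, as UMI counts per gene and barcode for each library. These raw counts were filtered as given above, with no normalization or integration. Stromal cells had Pdgfra and Dcn detected, no UMI of Cyp11a1 or Hsd3b1 and passed the limits on Sertoli genes and Ptprc. UMIs were summed per library and class and tested with edgeR 4.0.16 (TMM, filterByExpr, quasi-likelihood F test, R 4.3.3), after genes were left out whose CPM in kept cells outside both Leydig classes reached 5 times that of the summed class in either condition, together with the 7 genes of the rule. Low-Insl3 cells were compared with high-Insl3 cells with the library as a block, and between conditions without one, and the difference of both contrasts was tested as an interaction. Calls needed a Benjamini-Hochberg adjusted p below 0.01 and a log2 fold change beyond 1. Shares were compared by an exact permutation test with Clopper-Pearson intervals.

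In each comparison the text names up to 10 called genes that rose most and 10 that fell most at 50 CPM or more (5 and 5 for the interaction), beside listed genes. The members and the 18 lists were chosen with earlier results of these data known. Alternatives were DESeq2 1.42.0, other size factors, filters, limits, thinning and each library left out. Doublets were not removed, and Scrublet (scanpy 1.11.5) marked a top-scoring share of 0.8% per 1000 barcodes for an alternative without them. The labels call the libraries replicates, the methods state independent batches for the TOs, and the study calls the testes biological replicates, with no number of animals per library, so p-values measure the spread between these libraries only. Functions were tested on simulated data. Positions are those of GENCODE vM21, and promoters those of RefSeq.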

Additional observations from a re-analysis of the deposited data

Results flagged for a closer look

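The 10 genes below were singled out because the log2 ratio of low-Insl3 over high-Insl3 cells differed between TOs and testes by the edgeR interaction test, and each value is that difference, TO minus testis. Slc38a1 had 2.62 ± 0.42 (SE, adjusted p = 0.000156), with 13.5 and 15.9 CPM in low-Insl3 cells of the TOs against 1.58 and 0 CPM in high-Insl3 cells, and 144 and 165 CPM against 79.4 and 154 CPM in the testes. The potassium channel gene Kcnk3 had 2.50, the phospholipase Plcb1 1.92, Adh1 1.77 and the laminin gene Lama1 1.60. Ly6d had −3.10, Svs5, a seminal vesicle protein gene, −2.57, Klk1b27 −1.92 and Bhmt −1.85. Hsd17b3 had −2.41 ± 0.51 (adjusted p = 0.00771) and rested on testis 2: low-Insl3 cells had 1.89, 0.922, 0 and 220 CPM in TO 1, TO 2, testis 1 and testis 2. Of the 10, only Bhmt was called without TO 1, whereas 9 of 9 tested were called without TO 2. The latter setting leaves out the 16 high-Insl3 cells of TO 2.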

How the results depend on the processing

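The exact permutation test cannot pass 0.05 with 2 against 2 libraries, and 16 high-Insl3 cells in TO 2 and 96 and 97 members in the testes limit the depth. The difference in the share among Leydig cells (48.4 percentage points) was 20.3 to 76.4 with 1 library left out and 24.9 to 52.3 under the other alternatives; among kept cells (8.54) it was 5.46 to 11.6 and 6.67 to 10.2.

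Low against high Insl3 gave 65 called genes, 7 to 108 with 1 library left out, 10 with DESeq2, 168 with any count, 15 with thinned sums, 159 with Insl3 under 5 against 20 or more, 269 in TOs alone and 0 with no library block. The fit with Insl3 under 5 against 20 or more also left out TO 2, which had 1 high-Insl3 cell at that limit. TO against testis gave 1459, 795 to 1395 with 1 library left out, 2418 with any count, 90 with genes left out from 2 times, 433 without Scrublet doublets, 683 with thinned sums and 636 with Insl3 under 5. With the replicate number as a block it gave 1562 and ended the calls of Lss and Igfbp3; deviations of same-numbered libraries had r = 0.0691 across 12242 genes, which are not independent, and the numbers were not taken as pairs. The interaction gave 30, 7 to 65 with 1 library left out, 4 with DESeq2, 15 with genes left out from 2 times, 15 without Scrublet doublets, 17 with cells of at least 3000 UMIs and 0 with thinned sums (218 at an unadjusted p under 0.05 by edgeR).

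Of the values for single genes, 393 of 472 for low against high, 396 of 459 for TO against testis and 83 of 123 for the interaction were on the same side of both limits and of 0. Signs turned for Star in TOs alone (0.016), for Lhcgr without Scrublet doublets (0.028), with thinned sums (0.056) and in TOs alone (0.060), and for Nr5a1 with thinned sums (0.23). In the interaction, they turned for Hsd17b3 with DESeq2 (0.53) and without 1 library (−2.65 to 5.60), Slc38a1 with thinned sums (−0.0043) and Kcnk3 without 1 library (−0.82 to 2.94), and for Sult1e1 in TO against testis without 1 library (−1.03 to 6.82). The cause was not tested.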

Other observations

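Cwc22, a splicing factor gene, was chosen after its values were seen. In low-Insl3 cells it was at 16.6 and 123 CPM in testis 1 and testis 2 and at 260.0 and 257 CPM in TO 1 and TO 2. High-Insl3 cells had 12.5 and 105 CPM in testis 1 and testis 2. Testis 1 was thus below testis 2 in both classes. The same held in stroma (13.6 and 176 CPM) and in the other kept cells (10.2 and 85.0 CPM), so this was not particular to Leydig cells.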
